A study of Mus musculus with 4 samples.

Results

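Germline and meiosis gene promoters were the 42 promoters of the deposited table that belong to a fixed list of germ cell genes, out of 26354 promoters in all. The list was drawn up by gene function and every listed gene had a promoter in the table (Meiob under its older symbol 4930528F23Rik). Of the 42, 34 belong to genes of early germ cells and meiosis and 8 to genes of late spermatids (5) and oocytes (3). H3K9me2, dimethylation of lysine 9 on histone H3, was mapped by ChIP-seq in aortic medial tissue of male C57Bl/6J mice, from which fat, adventitia and endothelium had been removed by hand. The tissue was fixed with formaldehyde directly after dissection, with no culture, no treatment and no genetic change. Each of 2 experiments, numbered v102 and v134, yielded 1 library of H3K9me2 ChIP and 1 of its input, chromatin sequenced without the antibody step. The deposited values are read counts within 1 kb either side of each transcription start site. The tissue was not sorted, so a promoter's reads are an average over whatever cells the medial layer held.

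Germ cell genes are silent in most adult somatic cells. Many genes of early germ cells and meiosis have promoters rich in CpG dinucleotides, are kept silent by DNA methylation and by repressor complexes that include the H3K9 methyltransferases EHMT1 and EHMT2, and turn on when primordial germ cells lose these marks. Genes of late spermatids and oocytes more often have CpG-poor promoters and are switched on by stage-specific factors. H3K9me2 itself covers broad stretches of inactive chromatin and is usually low at CpG-rich promoters of genes in use.

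The promoter sequences show this difference in CpG content by their medians, although the ranges overlap and few late sequences could be read. They are RefSeq sequences of GRCm38.p6, from 250 bases before to 50 bases after the start, written 5′ to 3′ on the gene's strand with each CpG in capitals. The first are early promoters above input, that is with a ChIP share over that of a typical promoter in the test described below, namely Asz1 (chr6:18109012-18109311, minus strand), Sycp1 (chr3:102936051-102936350, minus strand), Ddx4 (chr13:112652261-112652560, minus strand) and Dazl (chr17:50293571-50293870, minus strand), and Stk31 (chr6:49395354-49395653, plus strand) is the early promoter with the lowest ratio among the high CpG promoters.
Asz1: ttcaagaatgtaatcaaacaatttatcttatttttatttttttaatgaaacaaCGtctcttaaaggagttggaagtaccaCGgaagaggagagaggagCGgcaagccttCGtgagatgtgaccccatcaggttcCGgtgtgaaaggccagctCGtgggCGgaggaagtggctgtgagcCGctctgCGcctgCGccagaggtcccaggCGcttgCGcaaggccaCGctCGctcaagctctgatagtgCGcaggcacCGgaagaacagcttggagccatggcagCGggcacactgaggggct
Sycp1: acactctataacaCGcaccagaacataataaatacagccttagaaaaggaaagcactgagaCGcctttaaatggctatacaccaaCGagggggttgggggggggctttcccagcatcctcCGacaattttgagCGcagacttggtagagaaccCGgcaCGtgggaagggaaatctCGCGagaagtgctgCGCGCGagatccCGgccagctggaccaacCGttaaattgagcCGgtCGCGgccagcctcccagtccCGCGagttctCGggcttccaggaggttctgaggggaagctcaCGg
Ddx4: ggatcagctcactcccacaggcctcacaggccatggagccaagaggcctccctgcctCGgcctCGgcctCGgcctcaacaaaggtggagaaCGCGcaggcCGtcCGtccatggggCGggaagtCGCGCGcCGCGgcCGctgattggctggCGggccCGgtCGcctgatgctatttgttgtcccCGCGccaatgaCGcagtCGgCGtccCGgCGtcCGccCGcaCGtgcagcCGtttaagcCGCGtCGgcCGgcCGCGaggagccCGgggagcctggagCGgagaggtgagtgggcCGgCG
Dazl: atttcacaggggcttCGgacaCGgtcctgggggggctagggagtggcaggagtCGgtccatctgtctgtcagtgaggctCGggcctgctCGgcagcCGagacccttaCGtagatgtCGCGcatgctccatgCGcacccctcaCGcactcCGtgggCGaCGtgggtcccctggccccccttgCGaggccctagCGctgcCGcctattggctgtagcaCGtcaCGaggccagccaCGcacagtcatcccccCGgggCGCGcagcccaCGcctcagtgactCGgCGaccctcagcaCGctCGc
Stk31: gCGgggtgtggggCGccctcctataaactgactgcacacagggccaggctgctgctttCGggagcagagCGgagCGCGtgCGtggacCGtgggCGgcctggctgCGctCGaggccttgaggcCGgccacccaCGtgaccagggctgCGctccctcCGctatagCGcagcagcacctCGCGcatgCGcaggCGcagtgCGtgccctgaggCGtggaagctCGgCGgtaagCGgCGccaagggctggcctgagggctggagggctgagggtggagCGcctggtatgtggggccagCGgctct
These 5 sequences hold 17, 21, 38, 28 and 28 CpG. The late promoters of Tnp1 (chr1:73015850-73016149, minus strand), which was above input, and Tnp2 (chr16:10788606-10788905, minus strand), which was not, hold 6 and 4.
Tnp1: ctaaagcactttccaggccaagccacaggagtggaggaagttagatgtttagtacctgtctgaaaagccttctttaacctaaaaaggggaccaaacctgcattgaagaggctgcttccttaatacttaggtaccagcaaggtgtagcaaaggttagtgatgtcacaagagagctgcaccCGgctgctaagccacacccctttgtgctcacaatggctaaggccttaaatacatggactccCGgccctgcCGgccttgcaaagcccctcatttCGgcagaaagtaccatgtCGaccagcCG
Tnp2: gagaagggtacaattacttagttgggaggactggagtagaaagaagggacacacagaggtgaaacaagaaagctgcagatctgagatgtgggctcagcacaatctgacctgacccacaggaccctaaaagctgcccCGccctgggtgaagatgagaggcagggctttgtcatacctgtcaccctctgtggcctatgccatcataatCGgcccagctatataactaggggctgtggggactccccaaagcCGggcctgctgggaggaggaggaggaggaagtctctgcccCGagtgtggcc
A start within 1 kb of the GENCODE start was found in RefSeq's promoter table for 26 early and 3 late promoters. The early ones had a median of 18 CpG in 300 bases (range 5 to 48) and the late ones 6 (range 4 to 7), compared with 7 over all 32851 RefSeq promoters. Among the early ones, Syce3, which was above input, held 5.

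ChIP reads were few. Over the table the libraries held 162233 (v102) and 229605 (v134) H3K9me2 reads and 619100 and 1084349 input reads, and the median promoter had 4 and 5 ChIP reads beside 20 and 37 input reads. The 42 germ cell gene promoters had between 1 and 57 ChIP reads and between 6 and 70 input reads in 1 library. The test was edgeR's quasi-likelihood test of ChIP against input counts, in which "above input" means an excess of ChIP reads relative to the typical promoter at a Benjamini-Hochberg adjusted p under 0.05. The test had no term for the experiment, so it did not pair each ChIP with its input. The labels do not say which animals each experiment used, so these p-values measure the spread between these libraries, which may be technical. An exact permutation test of 2 libraries against 2 could not give a p below 0.333. The log2 ratio, given for each experiment, is of ChIP to input reads after division by the total of each library, with a pseudocount of 1 read. A few promoters of other cell types' genes were read as a check of the tissue, although a promoter mark shows no expression. Of 7 smooth muscle genes, Myh11, Lmod1 and Myocd were below input and Smtn was above. Of 4 endothelial and 4 fibroblast genes 1 each was below input (Pecam1, Pdgfra) and none above, while 2 of 4 leukocyte genes, Ptprc and Adgre1, were above. Over all promoters 18.6% were above input and 17.0% below, and lists of 4 genes are too short to be told from these shares. For Smtn and Pecam1 the GENCODE and RefSeq starts lie 1320 and 35347 bases apart, so it is open which window was counted. What part other cells had in the results was not tested.

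Of the 42 promoters, 12 (28.6%) were above input, beside 18.6% of all promoters of the table. None was below input, beside 17.0% of all promoters. At an unadjusted p under 0.05, 14 were above and 1, Zp1, was below. The excess over the table depended on the libraries and the test. Without the v102 ChIP library 8 of the 42 (19.05%) were above input, beside 19.08% of all promoters, and without the v102 input 5 (11.9%), beside 11.5%, so that no excess was left. Without the v134 ChIP 12 were above (28.6%, beside 12.9%), and without the v134 input 7 (16.7%, beside 11.7%). DESeq2 called 5 above (11.9%, beside 11.5%), namely Asz1, Ddx4, Sycp1, Sycp2 and Syce1. All other calls of the main test among the 42 were lost with DESeq2. It gave no adjusted p for 16 of the 42. It called none of the 42 below, but only 0.110% of all promoters. In both experiments 18 promoters had a log2 ratio above 0, beside 32.3% of all promoters, and 12 lay in the top quartile in both, beside 17.9%. The median log2 ratio of the 42 was 0.54 (1.03 in v102 and 0.01 in v134) and that of all promoters was -0.31. Their median percentile among all promoters was 72.3. In the plot of the 42 promoters by experiment, most early promoters lie to the right of the median of all promoters, and many differ by more than 1 log2 unit between experiments.

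**Figure D1:**
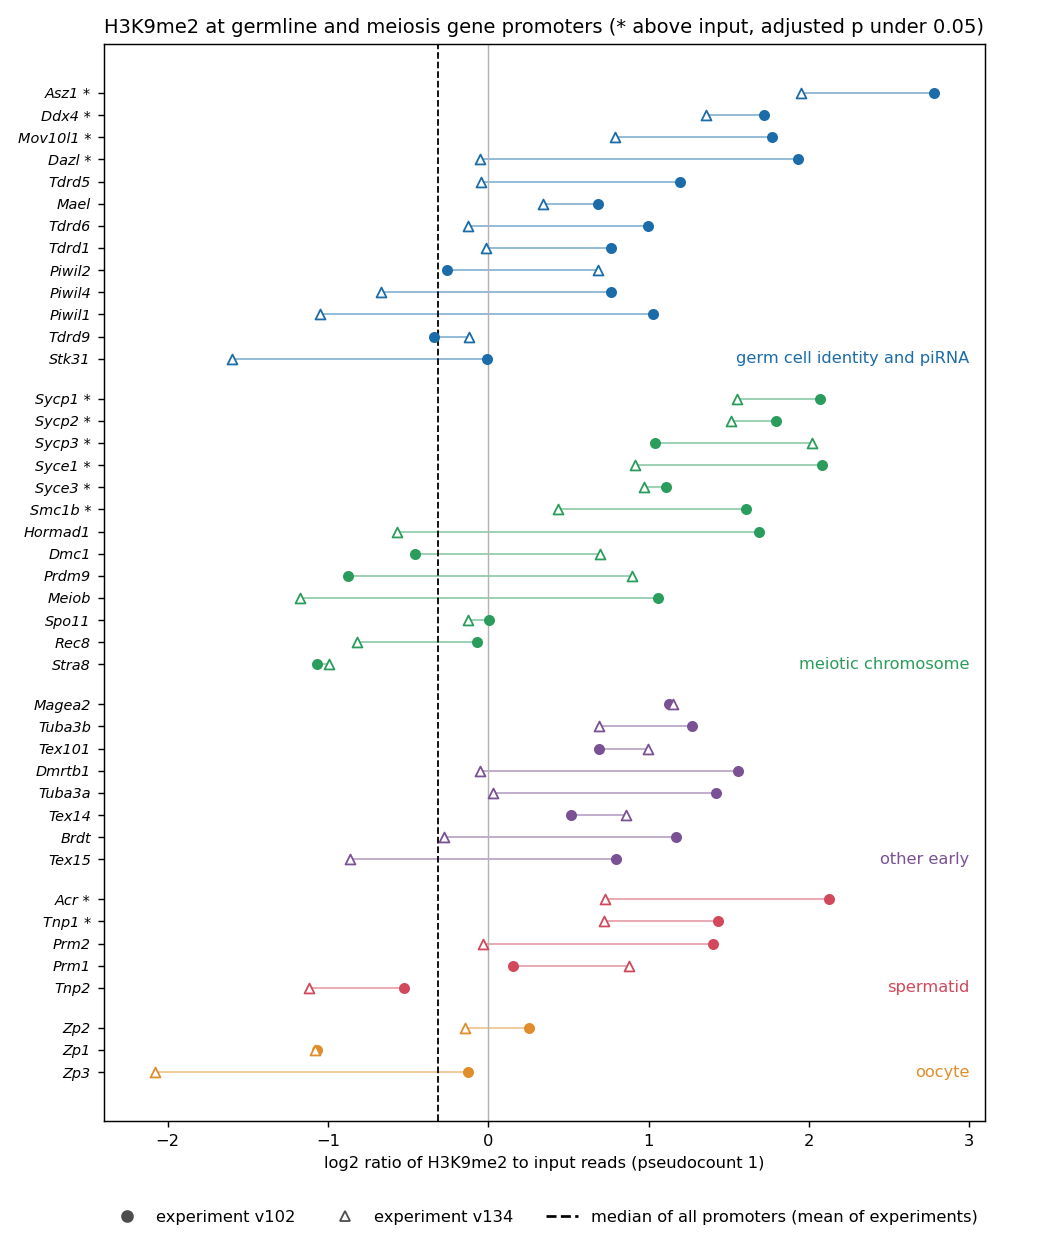
Log2 ratio of H3K9me2 to input reads (x axis, library totals scaled, pseudocount of 1 read) at the 42 germ cell gene promoters (y axis), grouped by role, with filled circles for experiment v102, open triangles for v134 and a line joining both. The dashed line is the median of all promoters (-0.31), and an asterisk marks the 12 promoters above input; Asz1 is highest and Zp3 lowest by the mean of the experiments.

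Among the 13 genes of germ cell identity and of the piRNA pathway, which silences transposons in the germ line, 4 promoters (30.8%) were above input. They were those of Asz1, Ddx4, Mov10l1 and Dazl, and the share of all promoters was 18.6%. Asz1, whose product anchors piRNA factors at mitochondria, had the highest ratio of all 42. Its promoter (start at 18109061 on chromosome 6) had 35 and 57 ChIP reads beside 19 and 70 input reads in v102 and v134. The log2 ratio was 2.78 and 1.95, at the 98.9th and 95.5th percentile of all promoters, so it was high in both experiments. The fitted log2 fold change over input was 2.37 ± 0.33 (SE, edgeR quasi-likelihood test, Benjamini-Hochberg adjusted p = 7.81e-11). ChIP reads summed over both experiments were 1.03 times the input reads (95% Wilson interval 0.773 to 1.38), compared with a median of 0.162 over the table. This interval and those that follow cover counting error only, since without molecular identifiers several reads may come from 1 molecule.

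Ddx4 (Vasa), the RNA helicase that marks the germ cell lineage, had 24 and 25 ChIP reads beside 28 and 47 input reads. The log2 ratios of 1.72 and 1.36 were close to each other, and the fold change was 1.65 ± 0.36 on the log2 scale (edgeR adjusted p = 7.79e-05). Mov10l1, a helicase needed to make piRNAs, had 16 and 14 ChIP reads beside 18 and 40 input reads (start at 88982909 on chromosome 15). Its log2 ratio was 1.77 in v102 and 0.79 in v134, with a fold change of 1.33 ± 0.42 (edgeR adjusted p = 0.00747), a call that was lost without the v102 ChIP, v102 input or v134 input library (0.0691, 0.108 and 0.0711). Dazl, an RNA-binding protein required for germ cells to form, had 23 and 9 ChIP reads beside 23 and 48 input reads. Its call rested on 1 experiment. The log2 ratio was 1.93 in v102 but -0.05 in v134, a mean of 0.94 ± 1.40 (SD, n = 2), and the fold change of 1.16 ± 0.40 (edgeR adjusted p = 0.0163) was not past the threshold without the v102 ChIP library, where the adjusted p was 0.824. The call was also lost without either input library (0.124 for v102 and 0.0985 for v134) and with the experiment as a block (0.0694).

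The other 9 promoters of this group did not pass the test. They were those of Mael, the Tudor proteins Tdrd1, Tdrd5, Tdrd6 and Tdrd9, the PIWI proteins Piwil1, Piwil2 and Piwil4, and Stk31, and their ratios of summed reads ran from 0.109 to 0.316. Stk31, a Tudor and kinase domain protein of the testis, was the lowest, with 5 and 2 ChIP reads beside 22 and 42 input reads. Its log2 ratio was -0.01 in v102 and -1.60 in v134, and its fold change was -0.91 ± 0.62 (edgeR adjusted p = 0.236).

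Of the 13 meiotic chromosome genes, 6 promoters (46.2%) were above input, beside 18.6% of all promoters. Of these 6 genes, 5 encode parts of the synaptonemal complex, the protein ladder that joins paired chromosomes. Sycp1, which builds its rungs, had 21 and 30 ChIP reads beside 19 and 49 input reads. Its log2 ratio was 2.07 and 1.55, and its fold change 1.87 ± 0.37 (edgeR adjusted p = 5.96e-06). The axial element genes followed closely. Sycp2 (start at 178407685 on chromosome 2) had 19 and 22 ChIP reads beside 21 and 37 input reads, and a fold change of 1.76 ± 0.39 (edgeR adjusted p = 8.59e-05). Sycp3 (start at 88459569 on chromosome 10) had 6 and 17 ChIP reads beside 12 and 20 input reads, and a fold change of 1.76 ± 0.50 (edgeR adjusted p = 0.00293). The experiments ordered these genes differently, since Sycp3 had a log2 ratio of 1.04 in v102 but 2.02 in v134, whereas Sycp2 had 1.79 and 1.52. The Sycp3 call was lost without the v134 ChIP, v102 input or v134 input library (edgeR adjusted p = 0.249, 0.0705 and 0.123).

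The central element genes Syce1 and Syce3 were also above input. Syce1 (start at 140787852 on chromosome 7) had 19 and 13 ChIP reads beside 17 and 34 input reads, and a fold change of 1.61 ± 0.42 (edgeR adjusted p = 0.00102, or 0.0612 without the v102 ChIP library). Syce3 (start at 89410503 on chromosome 15) had 12 and 16 ChIP reads beside 22 and 40 input reads, and a fold change of 1.11 ± 0.42 (edgeR adjusted p = 0.0281). That call was lost without the v134 ChIP, v102 input or v134 input library (0.105, 0.171 and 0.206), with the experiment as a block (0.0502) and with library totals as the scaling (0.0629). Smc1b, a cohesin subunit used only in meiosis, had 19 and 15 ChIP reads beside 24 and 55 input reads, and a fold change of 1.08 ± 0.39 (edgeR adjusted p = 0.0212), lost without the v102 ChIP, v102 input or v134 input library (0.209, 0.168 and 0.0887) and with library totals (0.0518). Its start (85131964 on chromosome 15) lies 114 bases from that of Ribc2, so the windows share reads and the call cannot be given to either gene.

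The other 7 meiotic promoters did not pass the test, although they include genes as central to meiosis as those above. Hormad1, an axis protein, Dmc1, the meiotic recombinase, Spo11, which makes the double-strand breaks, Prdm9, which places them, Meiob, Rec8 and Stra8 had ratios of summed reads from 0.0820 to 0.375. Some of them turned over between the experiments: Hormad1 had a log2 ratio of 1.69 in v102 and -0.57 in v134, Meiob 1.06 and -1.18, and Prdm9 -0.88 and 0.90. Stra8, the gene through which retinoic acid starts meiosis, was the lowest, with 1 and 4 ChIP reads beside 15 and 46 input reads. It was low in both experiments (log2 ratio -1.07 and -0.99), with a fold change of -1.30 ± 0.69 (edgeR adjusted p = 0.122).

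None of the 8 other early promoters passed the test, and 2 had an unadjusted p under 0.05 (Tuba3b and Dmrtb1). All 8 nonetheless lay above the median of all promoters, with log2 ratios from -0.04 at Tex15, needed for meiotic recombination, to 1.14 at Magea2. With a minimum of 20 reads in each input library Tex101, Tex14 and Dmrtb1 were above input, and on autosomes alone Tuba3b was. Magea2, a cancer-testis gene on the X chromosome and the locus the study chose as its positive control for H3K9me2, had only 3 and 7 ChIP reads beside 6 and 16 input reads. Its log2 ratio was alike in the experiments (1.12 and 1.15), and its fold change was 1.12 ± 0.66 (edgeR adjusted p = 0.170). Its ratio of summed reads, 0.455 with an interval of 0.219 to 0.944, was close to that of Dazl, 0.451 (0.298 to 0.682), which was called on more reads. Magea2 and the testis tubulin genes Tuba3a and Tuba3b have near-identical copies, so their reads may be shared with those. Tex15 had 9 and 4 ChIP reads beside 21 and 42 input reads and a fold change of 0.01 ± 0.53 (edgeR adjusted p = 0.992), the sign of which changed with the scaling. Tex14 starts 111 bases from Rad51c, a gene used in somatic cells, and shares its window.

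Of the 5 spermatid promoters, 2 (40%) were above input, beside 18.6% of all promoters. Acr, which encodes the acrosomal protease acrosin, had 15 and 12 ChIP reads beside 13 and 36 input reads (start at 89568326 on chromosome 15). Its log2 ratio was 2.12 and 0.73 and its fold change 1.43 ± 0.44 (edgeR adjusted p = 0.00638), lost without the v102 ChIP or v102 input library (0.0801 and 0.136). Tnp1, a transition protein that replaces histones in spermatids, had 16 and 22 ChIP reads beside 23 and 65 input reads, and a fold change of 1.09 ± 0.38 (edgeR adjusted p = 0.0156), lost without the v134 ChIP or v102 input library (0.0993 and 0.200). The other transition protein gene went the other way in both experiments. Tnp2 had 3 and 3 ChIP reads beside 21 and 40 input reads, a log2 ratio of -0.53 and -1.12, and a fold change of -1.07 ± 0.65 (edgeR adjusted p = 0.185). The protamine genes Prm1 and Prm2, which lie beside Tnp2 on chromosome 16, had ratios of 0.328 and 0.325 and did not pass the test.

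No promoter of the 3 oocyte genes, which encode the zona pellucida glycoproteins around the egg, passed the test. Zp3 was the lowest of the 42 by the mean log2 ratio (Zp1 and Stra8 were lower by the ratio of summed reads and by fold change), with 5 and 1 ChIP reads beside 24 and 39 input reads, a log2 ratio of -0.13 in v102 and -2.08 in v134, and a fold change of -1.11 ± 0.65 (edgeR adjusted p = 0.160). Without the v102 ChIP library it was below input (adjusted p = 0.0258). Zp1 had 2 and 3 ChIP reads beside 23 and 39 input reads and was low in both experiments (log2 ratio -1.07 and -1.08), with a fold change of -1.36 ± 0.68 (edgeR adjusted p = 0.104). Zp2, the highest, had 4 and 8 ChIP reads beside 15 and 46 input reads and a fold change of -0.05 ± 0.54 (edgeR adjusted p = 0.945). As a group the oocyte promoters had 0.677 (v102) and 0.457 (v134) times the pooled ChIP to input ratio of the table.

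Early and late genes were then compared as lists, as a description, since 2 experiments carry no test of a difference between lists. In the early set 10 of 34 (29.4%) were above input and in the late set 2 of 8 (25%), beside 18.6% of all promoters. Neither set had a promoter below input, beside 17.0% of all promoters. The median log2 ratio was 0.57 in the early set and 0.29 in the late set, a difference of 0.28. The late set joins unlike groups: the 5 spermatid promoters had a median of 0.68, above that of the early set, and the 3 oocyte promoters -1.08. Within experiments the early median was higher as well, 1.05 and 0.20 in v102 and 0.19 and -0.09 in v134. Pooled over their reads, early promoters had 2.11 and 1.39 times the ratio of the whole table in v102 and v134, and late promoters 1.46 and 0.965 times. The late set is small and rests on uncertain positions. For 7 promoters (Tdrd6, Piwil1, Piwil2, Tex101, Magea2, Prm1 and Prm2) the GENCODE and RefSeq starts lie more than 1 kb apart, so it is open which window was counted. None of these was called by the main test. Without them the late median was -0.38 and the difference 0.96 (29 early and 6 late promoters).

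CpG content ran against the ratio over the whole table, with a Spearman rho across promoters of -0.52 with the CpG observed/expected ratio of the 2 kb window and -0.55 with its GC content. Promoters are not independent replicates, and what the libraries' GC bias contributed was not tested. The early promoters had a median CpG observed/expected ratio of 0.509 and the late ones 0.233, compared with 0.440 for all promoters. In the plot of the ratio against CpG content, early promoters such as Sycp1, Ddx4 and Dazl lie along the upper edge of promoters with like CpG content. With the trend of CpG content removed, the median percentile of the early set was 83.6 and that of the late set 58.2, and with the trend of GC content removed these were 80.4 and 59.5. Without either, they were 73.0 and 66.1.

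**Figure D2:**
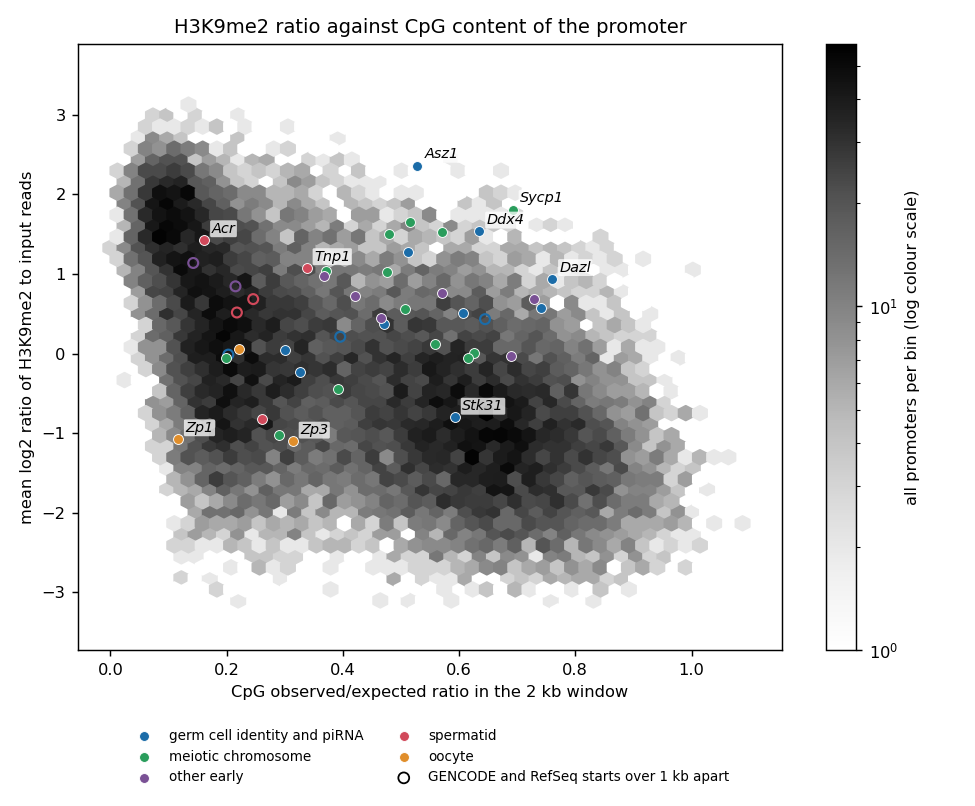
Mean log2 ratio of H3K9me2 to input reads in the 2 experiments (y axis) against the CpG observed/expected ratio of the 2 kb window (x axis), with all promoters as grey bins on a log colour scale and germ cell gene promoters as points coloured by role. Open points have GENCODE and RefSeq starts over 1 kb apart; over all promoters the ratio falls as CpG content rises (rho -0.52), while Asz1, Sycp1, Ddx4 and Dazl sit high for their CpG content.

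Promoters were therefore set beside others of their own CpG class. A high CpG promoter has a 500-base window with at least 55% GC and a CpG observed/expected ratio of at least 0.75, a low CpG promoter has none above 0.48, and the rest are intermediate. Among the 10189 high CpG promoters 4.57% were above input and 28.0% below. Of the 16 germ cell gene promoters in this class, all of them early, 5 (31.3%) were above input (Ddx4, Dazl, Sycp1, Sycp2 and Smc1b) and none was below. All 16 exceeded the class median of -0.91, and 15 exceeded its 75th percentile of -0.19, the exception being Stk31. Ddx4, Sycp1 and Sycp2 lay above the 98th percentile of their class.

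In the intermediate class, 15.5% of 4685 promoters were above input and 12.0% below. There 5 of 13 early promoters were above (Asz1, Mov10l1, Sycp3, Syce1 and Syce3), with 11 over the class median, and 1 of 3 late promoters (Tnp1). In the low class, 36.6% of 7438 promoters were above input and 6.70% below. None of the 5 early promoters of this class was above (edgeR, also at an unadjusted p under 0.05) and 1 of 5 late ones was (Acr). DESeq2 called none of the 5 early ones either, but gave no adjusted p for at least Stra8 and Magea2 among them. With a minimum of 20 reads in each input library Tex101 was above. Of the 10 early and late promoters, 3 exceeded the class median of 0.53. The early set thus stood higher than its class where CpG content was high or intermediate, as the plot by class shows, and the late set had no promoter in the high class. Of 11 high CpG promoters in a wider list of spermatid genes, 3 (27.3%) were above input and 7 exceeded the 75th percentile of the class, so a high ratio there was not particular to early genes.

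**Figure D3:**
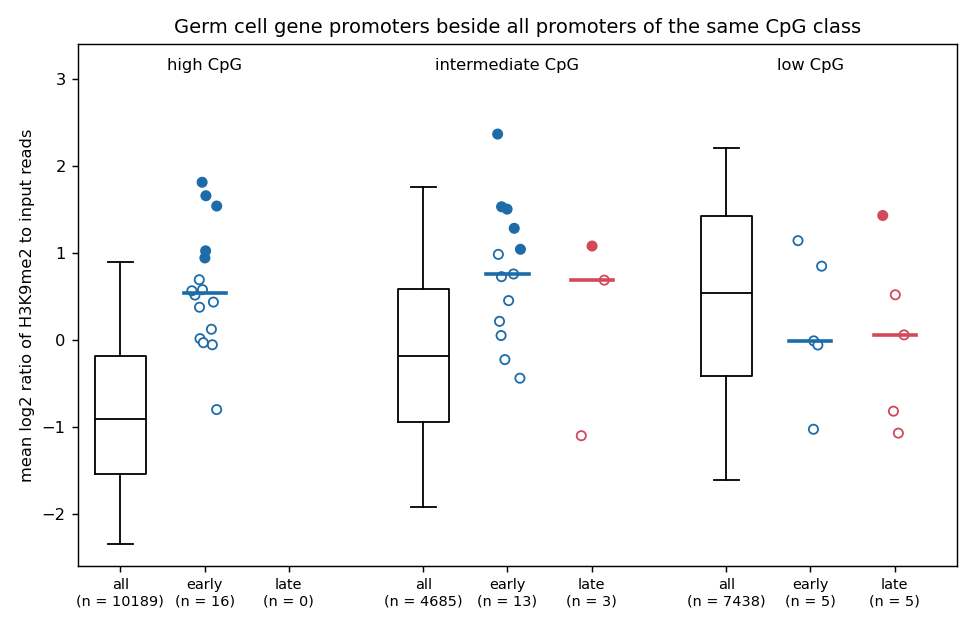
Mean log2 ratio of H3K9me2 to input reads (y axis) for all promoters of a CpG class (boxes, quartiles with whiskers at the 5th and 95th percentile) and for early (blue) and late (red) germ cell gene promoters (points, filled if above input, bar at the median). All 16 early promoters of the high CpG class lie above the class median, while 3 of 10 early and late promoters of the low class do. The class is open for Piwil1, Tex101, Magea2 and Prm1 (low), Piwil2 and Prm2 (intermediate) and Tdrd6 (high), whose start is uncertain.

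The letters of 3 motifs were searched on both strands of the 300-base RefSeq promoters, because a repressor complex holding MGA, MAX and E2F6 is known at many germ cell gene promoters. The E-box CACGTG, bound by MAX dimers among others, was in 10 of 26 early promoters (38.5%), beside 7.15% of all 32851 promoters and 10.9% of the 14281 with at least 10 CpG (10 of 24 early promoters with as many). The E2F motif GCGGGAA was in 9 of 26 (34.6%), beside 4.60% and 9.20%. The cAMP response element TGACGTCA was in none of 26, beside 1.79%. No match of one motif overlapped a match of another in these promoters. Read against the test, the E-box was in 4 of 10 early promoters above input and in 6 of 16 others, and the E2F motif in 3 of 10 and 6 of 16. In the sequences above, Sycp1 and Stk31 hold an E-box and Ddx4 holds both motifs, whereas Asz1 and Dazl hold none of the 3. Of the 3 late promoters, 1 (Zp3) held an E-box and none the E2F motif. A match is a description of letters only and shows no binding.

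H3K9me2 often spreads over whole regions, so each promoter was compared with the nearest other promoter of the table whose start lay more than 2 kb away. The early promoter had the higher mean log2 ratio in 31 of 34 cases, beside 49.0% of all 22342 promoters with a position, and was higher in both experiments in 27, beside 32.0%. A set with high ratios exceeds its neighbours more often for that reason alone, and of all promoters above input 72.3% were higher than their neighbour and 55.1% in both experiments. The median distance was 28.6 kb. Sycp2 had a log2 ratio of 1.65, while Ppp1r3d, 6.79 kb away, had -1.26 with 3 and 1 ChIP reads beside 31 and 25 input reads. Ddx4 had 1.54 and Slc38a9, 8.28 kb away, had -0.68. Promoters that did not pass the test showed the same order, as Dmc1 (0.12) did with Cby1, which had 0 ChIP reads in both experiments beside 21 and 41 input reads. Where both were in the high CpG class, the early promoter was higher in both experiments in 9 of 9 cases, with a median difference of 1.96. Over all 5150 such pairs, the first was higher by the mean in 48.8% and in both experiments in 30.8%.

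The exceptions were Syce1, Tdrd5 and Stra8. Syce1 lies 24.1 kb from Cyp2e1, a liver cytochrome P450, which was itself above input with 15 and 12 ChIP reads beside 11 and 31 input reads. In the late set 4 of 8 promoters were higher than their neighbour (Tnp1, Acr, Prm2 and Zp3), and the median difference was 0.42. The neighbour of both Prm2 and Tnp2 was Prm3, itself a spermatid gene. The 7 promoters whose GENCODE and RefSeq starts lie more than 1 kb apart are in the early and late counts, so their neighbours and distances are open. Tnp1 had 1.08 and Igfbp5, 141 kb away, had -1.66, whereas Zp1 (-1.08) was lower than Prpf19 (0.61). Of the 12 germ cell gene promoters above input, which were chosen here for a high ratio, 11 were higher than their neighbour in both experiments, beside the 55.1% of all promoters above input. These are counts over promoters and carry no test.

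**Figure D4:**
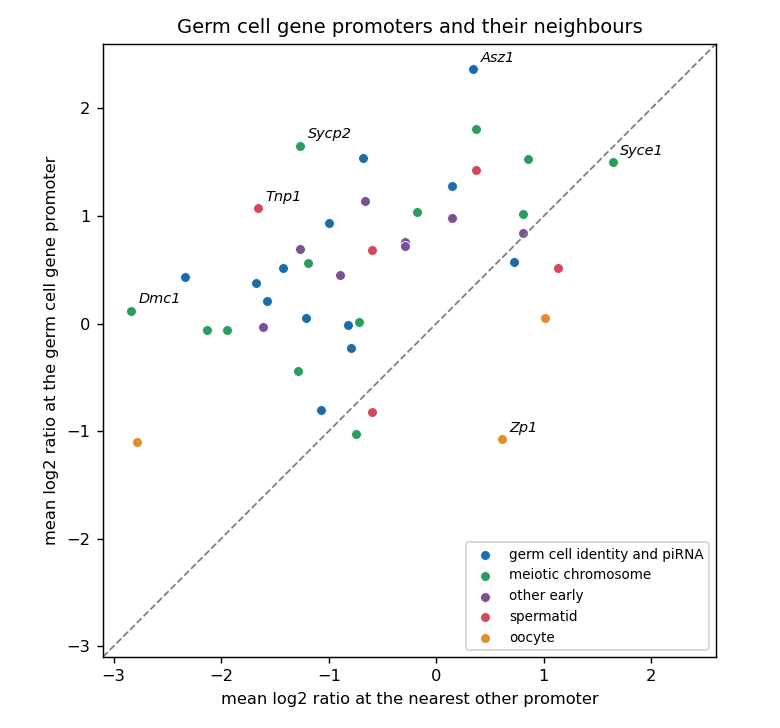
Mean log2 ratio of H3K9me2 to input reads at each of the 42 germ cell gene promoters (y axis) against that at the nearest other promoter more than 2 kb away (x axis), coloured by role, with the line of equality dashed. Of the early promoters 31 of 34 lie above the line, and of the late ones 4 of 8.

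Wider lists of germ cell genes were read in the same way, with ranks by the mean log2 ratio. Of 45 other early germ cell promoters, 12 (26.7%) were above input, beside 18.6% of the table, and 2 (4.44%) below, beside 17.0%, with a median log2 ratio of 0.31. The highest were Stag3, a meiotic cohesin subunit whose window overlaps that of another gene (34 and 29 ChIP reads beside 20 and 37 input reads), and Rpl10l, a testis ribosomal protein gene (12 and 18 beside 8 and 22). The lowest were Ythdc2 (0 and 1 beside 23 and 43) and Psmc3ip (0 and 1 beside 22 and 41), which act in entry into meiosis and in recombination, and both were below input. In the high CpG class 7 of these 21 promoters (33.3%) were above input and 2 below.

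Of 41 other spermatid promoters, 13 (31.7%) were above input and 1 (2.44%), Spaca3, was below. By the mean log2 ratio Pgk2, the glycolytic enzyme of spermatogenic cells, was highest (2.76, with 34 and 40 ChIP reads beside 13 and 39 input reads), followed by Cabs1 (1.74). Spaca3 (-1.74) and Catsper2 (-1.17), both with windows that overlap another gene's, were lowest. Of 19 other oocyte promoters, 5 (26.3%) were above input and 1 (5.26%), Tle6, was below. Nlrp5 (mean log2 ratio 2.50) and Nlrp14 (1.52), maternal NLR proteins, were highest, and Tle6 (-1.87) and H1foo (-1.10) lowest. For Nlrp14 the GENCODE and RefSeq starts lie 53535 bases apart, so it is open which window was counted. The shares above input of these late lists were also over the 18.6% of the table, and their median log2 ratios were 0.30 and 0.08.

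Of 13 genes of the MGA, MAX and E2F6 complex and of DNA methylation, 1 promoter (7.69%) was above input, beside 18.6% of the table. A further 2 (15.4%) were below, near the 17.0% of the table. All but Dnmt1 were high CpG promoters, a class with 4.57% above input and 28.0% below. Mga itself was above, with 9 and 25 ChIP reads beside 21 and 37 input reads and a fold change of 1.47 ± 0.41 (edgeR adjusted p = 0.00215), and L3mbtl2 was next (mean log2 ratio 0.41). Cbx3 and Max were lowest, each with 2 and 0 ChIP reads. The median log2 ratio of this list was -0.90, near the -0.91 of all high CpG promoters.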

How the data were processed

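H3K9me2 ChIP-seq and input libraries came from 2 experiments on the aortic medial layer. Per the labels and the paper's methods, the authors trimmed paired-end reads with Trim Galore 0.4.2 and cutadapt 1.9.1, aligned them to GRCm38 with Bowtie2 2.2.7 and counted reads per promoter window with SeqMonk. The deposited table holds raw counts per library, their sums, and a ratio of the sums of ChIP and input, which is not scaled for library size. Promoters with few input reads had been removed, and the lowest summed input in the table was 21 reads. Neither the annotation release nor how duplicates were treated is given in the sources used here.

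For all 26354 promoters, edgeR 4.0.16 in R 4.3.3 tested ChIP against input counts (quasi-likelihood, TMM factors, Benjamini-Hochberg adjustment over the table), and DESeq2 1.42.0 did so as an alternative. Standard errors are the size of the log2 fold change over the square root of F. In 26354 simulated promoters the edgeR test called 82.0% of 50 raised 4-fold and 6.00% of 50 raised 2-fold. It called 12.0% of 50 lowered to 0.25 of their level, 0 of 50 lowered to 0.5 and 1 of 26154 unchanged. Far fewer promoters were changed there than were called in the data, so the adjusted threshold was stricter than in the data. Positions, GC and CpG content came from GENCODE M21 on GRCm38 for 84.7% of symbols, and promoter sequences from RefSeq. The ratio's trend with GC or CpG content was removed by lowess (fraction 0.3). Per the paper, each ChIP has its associated input, and the libraries are therefore paired by experiment. The main edgeR test did not use this pairing, and the experiment entered as a block only in an alternative. Across promoters, the ChIP difference and the input difference between experiments correlated at 0.10. Both pairs differed by more than counting error alone (chi-square per degree of freedom 1.52 for ChIP and 1.28 for input). Duplicate reads can also give such a spread, so these values cannot tell whether a pair was a repeat of 1 library. Python 3.11.15, pandas 2.3.3, statsmodels 0.14.6 and pysam 0.24.0 were used.

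The promoters and gene lists were chosen by function with earlier results of these data known. Named with full values are promoters past the threshold, the highest and lowest of each role group, Magea2, and the 2 highest and lowest of each wider list. Other promoters were named as examples after their values were seen. CpG classes, motifs and neighbours were added after the data were seen.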

Additional observations from a re-analysis of the deposited data

How the results depend on the processing

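The calls at Asz1, Ddx4, Sycp1 and Sycp2 held under every alternative in which they were tested, and that at Syce1 under all but leaving out the v102 ChIP library (adjusted p = 0.0612). Dazl, Mov10l1, Sycp3, Syce3, Smc1b, Tnp1 and Acr each lost the call under 3 to 6 alternatives. DESeq2 was among these for each of them, with a DESeq2 adjusted p from 0.0514 at Sycp3 to 0.148 at Syce3. Germ cell gene promoters above input numbered 5 with DESeq2 (11.9%, beside 11.5% of all promoters) and 5 to 12 when a library was left out, and those below 0 to 1. The share above input was that of the table without the v102 ChIP (19.05% and 19.08%) or v102 input (11.9% and 11.5%), so the excess was lost there. With the replicate block 10 were above (23.8%, beside 15.8%), Dazl (adjusted p = 0.0694) and Syce3 (adjusted p = 0.0502) being lost. Library totals in place of TMM gave 10 (beside 16.3%) and moved the median fold change of all promoters from -0.35 to -0.50.

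Over the table, 4902 promoters were above and 4484 below input. With the replicate block 2187 were below (65.6% of calls were above, beside 52.2%), among autosomal promoters 2811, under a minimum of 20 reads per input library 2446 above and 1678 below, with DESeq2 3026 and 29 (17372 adjusted p undefined), and without 1 library 3037 to 5028 and 495 to 3995. Autosomal promoters added Tuba3b (31.7% above, beside 19.5% of all autosomal promoters). The minimum of 20 reads in each input left 25 germ cell gene promoters, 9 above (36.0%, beside 17.5% of the 13993 promoters kept). Among these 9, Dmrtb1, Tex101 and Tex14 were not called by the main test.

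The late median was 0.68 with a pseudocount of 5 reads, -0.82 under that minimum and -0.38 without uncertain starts, and -0.089 to 0.20 with 1 experiment. The early minus late difference was 1.23 under it, 0.80 with the CpG trend removed, 0.96 without uncertain starts and 0.28 to 0.84 with 1 experiment. The fold change at Tex15 turned to -0.13 with library totals, -0.0085 with the replicate block and -0.82 without the v102 ChIP (-0.82 to 0.73 over left-out libraries), and that at Zp2 to 0.11 on autosomes, 0.24 and 0.40 without the v102 ChIP or v134 input (-0.37 to 0.40 over left-out libraries), and 0.022 with DESeq2. A left-out library leaves 1 in its arm, assumed to vary like the other arm. The causes were not tested. The median promoter had only 4 to 5 ChIP reads. In the simulation 6.00% of 2-fold rises were called, under a stricter adjusted threshold than in the data. In the data, log2 fold changes of 1.08 (Smc1b) and 1.16 (Dazl) passed the threshold, though both calls were lost under some alternatives. A fold change of 1.12 (Magea2), on fewer reads, did not pass.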
